A study of Mus musculus with 6 samples.

Results

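The genes described here are the neighbours of Il33 on mouse chromosome 19, 10 Mb to either side of the locus that was targeted in the knockout. On GRCm38, with positions from GENCODE M21, Il33 (ENSMUSG00000024810) lies at chr19:29925114-29960718 on the plus strand. Genes overlapping the 10 Mb before or after it were selected on their summed raw count, which had to be at least 60 over the 6 libraries. Il33 itself and 11 further genes of the window, among them Klf9, Cd274 and the Ifit cluster, were set aside by name with earlier results of these data known. This left 70 genes of the 37187 in the count table, 65 of them protein coding, 4 processed pseudogenes and 1 antisense transcript. A further 121 genes of the window lay under the count minimum, 57 of them with 0 reads in every library. Besides the names set aside, the summed count was the only measured value in the rule. Plce1 with 71 reads and the pseudogene Gm10136 with 77 lay just inside it, and Rpl10-ps6 with 51 and Cyp26c1 with 44 just outside.

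The RNA-seq libraries were made from lymph node Tregs (regulatory T cells), a CD4 lineage that holds other lymphocytes in check. They were sorted as CD4+CD25+GITR+ from nodes draining a tumour. All mice carried B16.F10, a transplantable mouse melanoma, from 300000 cells injected under the skin, and were sampled on day 14. The 3 wild-type libraries (WT, replicates 1 to 3) came from C57BL6 mice and the 3 knockout libraries (KO, replicates 4 to 6) from mice labelled il33-/- in C57BL6 background. The strategy of the targeted allele, the cells it was made in, the number of backcrosses, the age of the mice and whether each library was 1 animal were not given in the sources used here. All p-values therefore measure the spread between these libraries, which may be technical. The label adds Foxp3 to the sort markers, and Foxp3 stood at 719.2 to 856.9 CPM (reads scaled to the library total, normalized with TMM factors) with the other 6 Treg markers at 91.89 CPM or more in every library.

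Il33 encodes an alarmin, a cytokine held in the nucleus of barrier and stromal cells and released on damage, and Tregs read it through the receptor ST2. In a knockout line the genes next to the targeted locus are inherited together with it, so the state of the linked stretch of chromosome goes with the genotype. Loss of IL-33 and a difference in linked sequence cannot be told apart in this design, since every KO library carries the allele and no WT library does. The neighbourhood holds genes of unrelated function, among them the cytokine receptor kinase gene Jak2, the death receptor gene Fas and several mitotic motor genes.

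Of the 70 neighbours of Il33, 7 differed between WT and KO Tregs and 63 were not called. Higher in KO were Slc35g1, Asah2, Sgms1 and Fas, and among the lower were Ranbp6 and Abhd17b. All 70 genes passed the filter on low counts and were tested with edgeR's quasi-likelihood test across 13626 genes (adjusted p threshold 0.05). The 7 calls among 70 compare with 6.50% of all genes tested. The 4 higher genes compare with 3.68% of all genes called higher, and the 3 lower genes with 2.83% called lower. With so few calls the set lies near this background, and the count by itself is no result about the neighbourhood. None of the 7 changed as much as 2-fold, and the absolute log2 fold changes of these 6 ran from 0.29 to 0.79. In bulk RNA, fewer cells of a type and less RNA per cell cannot be told apart.

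**Figure D1:**
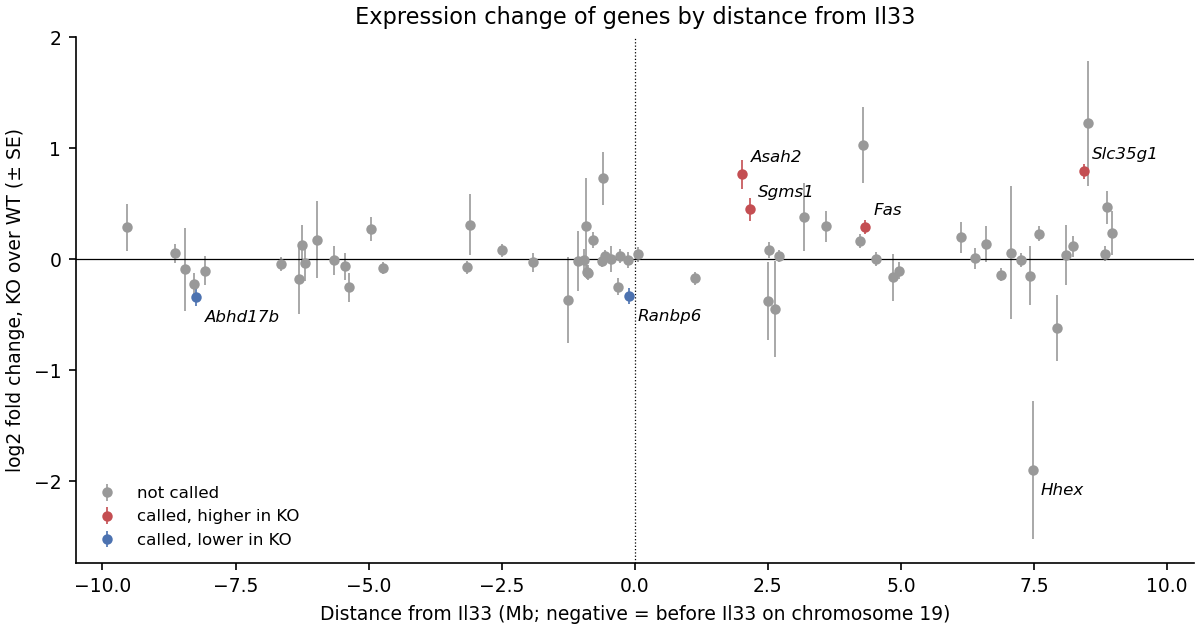
Log2 fold change of KO over WT (y axis, bars ± SE) for genes of the set against distance from Il33 in Mb (x axis, negative before Il33); red and blue points passed the test, grey points did not. Abhd17b and Ranbp6, both lower, are the called genes before Il33, and Asah2, Sgms1, Fas and Slc35g1 are shown after it; Hhex lies lowest but with a wide error.

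Along the chromosome the called genes lay on both sides of Il33. Before Il33, 2 of 36 genes were called, both lower: Abhd17b at -8.24 Mb and Ranbp6 at -0.11 Mb from the gene, with 30 uncalled genes between them. After Il33, 5 of 34 were called, among them Asah2 at 2.02 Mb, Sgms1 at 2.16 Mb, Fas at 4.33 Mb and Slc35g1 at 8.44 Mb. These are 5.56% of the genes before Il33 and 14.7% of those after it, against 6.50% of all genes tested. Both shares rest on few calls, and the difference between the sides was not tested. Asah2 and Sgms1 follow each other within the set, both on the minus strand, and both were higher in KO.

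The largest rise among the called genes was that of Slc35g1 (ENSMUSG00000044026, chr19:38395980-38405610, plus strand), a multi-pass membrane protein of the solute carrier family. It measured 47.8, 43.4 and 42.0 CPM in WT replicates 1, 2 and 3 and 77.9, 77.9 and 74.96 CPM in KO replicates 4, 5 and 6. All KO libraries were far above all WT libraries, and the spread within each group was small. WT averaged 44.4 ± 3.06 CPM and KO 76.9 ± 1.70 CPM (SD, n = 3), and the log2 fold change was 0.79 ± 0.07 (SE; edgeR's adjusted p = 2.71e-05). The per-length level was 12.7 FPKM in WT and 22.03 FPKM in KO. These FPKM are the authors' fragment counts per gene length. For 100% of 10418 genes checked they equalled the authors' normalized counts times a constant per gene. Slc35g1 passed under all 21 alternative settings, including each left-out library.

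Asah2 (ENSMUSG00000024887, chr19:31982597-32108211, minus strand) encodes neutral ceramidase, which cleaves ceramide to sphingosine. It had 8.16, 9.15 and 10.2 CPM in WT and 17.2, 15.8 and 13.8 CPM in KO, in replicate order. The groups did not overlap, and every KO library stood above every WT library. The rise was 0.77 ± 0.13 on the log2 scale (SE; edgeR's adjusted p = 0.00392), at per-length levels of 1.95 FPKM in WT and 3.30 FPKM in KO. Its call held without each library in turn. It was lost when the mean log2 level of 17 B cell markers entered the fit as a covariate, with the change at 0.79 and an adjusted p of 0.310. These markers summed to 340.3 to 568.9 CPM in KO and to 1183 to 2201 CPM in WT. In WT replicate 2 a single marker, Cd72, made up 558.3 CPM of the sum. Without Cd72, a step chosen after its values were seen, the other 16 summed to 2115, 624.5 and 1622 CPM in WT and to 390.6, 525.7 and 299.1 CPM in KO. WT replicate 2 then lay near KO replicate 5, and with that covariate the adjusted p of Asah2 was 0.186.

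Sgms1 (ENSMUSG00000040451, chr19:32122727-32389714, minus strand) encodes sphingomyelin synthase 1, the Golgi enzyme that turns ceramide into sphingomyelin. WT libraries had 53.1, 42.7 and 54.1 CPM and KO libraries 66.2, 76.7 and 62.0 CPM. KO replicate 5 was the highest and WT replicate 2 the lowest, and the groups stayed apart. The log2 fold change was 0.45 ± 0.10 (SE; edgeR's adjusted p = 0.0342), at 4.83 FPKM in WT and 6.59 FPKM in KO. The call was lost when WT replicate 1 (adjusted p = 0.0656), WT replicate 3 (0.0628), KO replicate 4 (0.0763) or KO replicate 5 (0.0830) was dropped. Under the fit with B cell signal as a covariate, the change was 0.91, with an adjusted p of 0.00678.

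Fas (ENSMUSG00000024778, chr19:34290666-34327772, plus strand) encodes the death receptor through which activated T cells are removed. It stood at 46.8, 43.5 and 44.4 CPM in WT and 55.05, 52.0 and 57.9 CPM in KO. The lowest KO library lay above the highest WT library. The means were 44.9 ± 1.69 CPM in WT and 54.97 ± 2.95 CPM in KO (SD, n = 3), and the log2 fold change was 0.29 ± 0.07 (SE; edgeR's adjusted p = 0.0204). The call was lost when WT replicate 3 (adjusted p = 0.0934) or KO replicate 6 (0.0855) was dropped, and with the B cell covariate (log2 fold change 0.30, adjusted p = 0.511).

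Ranbp6 (ENSMUSG00000074909, chr19:29808400-29812974, minus strand), of the importin family that carries proteins into the nucleus, was the called gene nearest to Il33. It measured 49.7, 46.7 and 46.8 CPM in WT and 40.7, 36.4 and 36.9 CPM in KO. The groups were clearly separate and each was tight. WT averaged 47.7 ± 1.68 CPM and KO 38.0 ± 2.36 CPM (SD, n = 3), with a log2 fold change of -0.33 ± 0.07 (SE; edgeR's adjusted p = 0.0154). Dropping WT replicate 1 gave an adjusted p of 0.0665, WT replicate 3 gave 0.0565, KO replicate 5 gave 0.0705 and KO replicate 6 gave 0.0661. With the B cell covariate the change was -0.28 (adjusted p = 0.572).

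Abhd17b (ENSMUSG00000047368, chr19:21653185-21685637, plus strand), which encodes an enzyme that removes palmitate from membrane proteins, had 55.1, 44.5 and 53.4 CPM in WT and 38.3, 42.3 and 40.2 CPM in KO. WT replicate 2 lay only just above the highest KO library. The log2 fold change was -0.34 ± 0.08 (SE; edgeR's adjusted p = 0.0295). The B cell markers, all measured and none at 0, were also lowest among WT in replicate 2, with Cd72 (1183 CPM) and without it (624.5 CPM). With all 17 markers in the covariate the change of Abhd17b was -0.01 (adjusted p = 0.988), and without Cd72 it was -0.06 (adjusted p = 0.927). The part of B cell signal in it was not tested further. Dropping WT replicate 1 gave an adjusted p of 0.126, WT replicate 3 gave 0.134, KO replicate 4 gave 0.0824, KO replicate 5 gave 0.0591 and KO replicate 6 gave 0.0994.

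**Figure D2:**
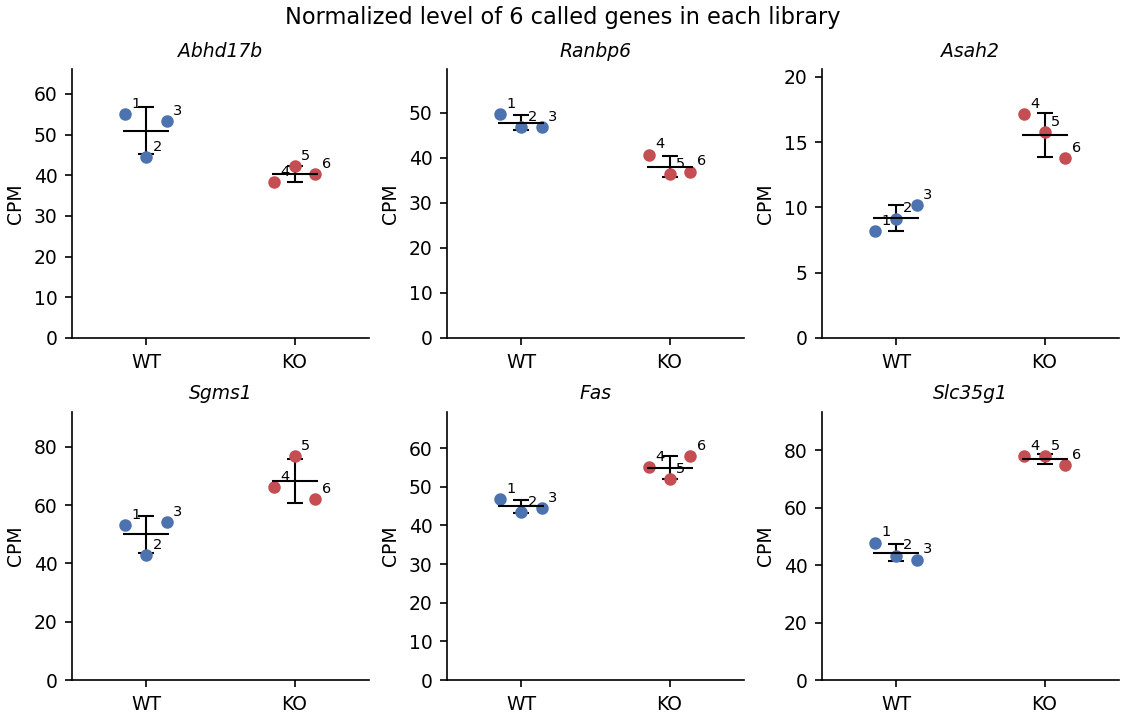
CPM (y axis, from 0) of 6 called genes in each library, WT in blue and KO in red with replicate numbers; bars show the mean ± SD of 3 libraries. In every panel the WT and KO points do not overlap, with the widest gap for Slc35g1 (42.0 to 47.8 against 74.96 to 77.9 CPM) and the narrowest for Abhd17b.

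The starts of 3 called genes are shown because a single RefSeq start lay within 10 bases of the GENCODE start, so the stretch upstream of the counted gene is known: Slc35g1, the largest rise, Fas, also higher, and Ranbp6, the called gene next to Il33. Each is the 250 bases before the start, from RefSeq on GRCm38.p6, 5′ to 3′ on the gene's strand, with CG dinucleotides in capitals. They are chr19:38395730-38395979 (plus) for Slc35g1, chr19:34290409-34290658 (plus) for Fas and chr19:29812975-29813224 (minus) for Ranbp6.
Slc35g1: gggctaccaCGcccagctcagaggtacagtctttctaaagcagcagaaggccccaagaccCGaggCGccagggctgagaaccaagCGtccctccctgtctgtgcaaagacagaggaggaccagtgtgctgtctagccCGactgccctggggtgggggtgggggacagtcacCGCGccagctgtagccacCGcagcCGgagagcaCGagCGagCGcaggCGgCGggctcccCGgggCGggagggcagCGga
Fas: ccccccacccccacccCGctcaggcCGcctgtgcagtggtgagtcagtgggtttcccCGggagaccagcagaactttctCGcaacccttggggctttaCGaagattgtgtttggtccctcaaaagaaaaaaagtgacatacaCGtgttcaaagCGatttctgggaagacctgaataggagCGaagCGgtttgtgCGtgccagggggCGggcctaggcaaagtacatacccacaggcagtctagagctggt
Ranbp6: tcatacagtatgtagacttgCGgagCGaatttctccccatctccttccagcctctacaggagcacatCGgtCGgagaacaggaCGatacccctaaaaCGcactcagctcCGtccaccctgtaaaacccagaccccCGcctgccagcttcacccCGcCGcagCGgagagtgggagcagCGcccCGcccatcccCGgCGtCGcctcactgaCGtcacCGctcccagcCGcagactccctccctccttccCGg
These stretches hold 17, 11 and 20 CG dinucleotides, against a median of 6 (quartiles 2 and 16) over 32851 such stretches. The GC box GGGCGG, searched on both strands, was found in all 3 and in 32.7% of all stretches, CCAAT in none of the 3 and in 33.8%, and TATAAA in none of the 3 and in 12.4%. Asah2 differs from them, with 2 CG dinucleotides and none of the 3 motifs before its RefSeq start, which lies 5071 bases from the GENCODE start. These matches describe the letters and name no factor.

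Of the 5 genes of the set nearest to Il33 on each side, Ranbp6 before it and Asah2 and Sgms1 after it were called. Genes of the window under the count minimum are not ranked here. The 5 genes of the set nearest before Il33 were Ranbp6, 9930021J03Rik, Ermp1, Ric1 and Pdcd1lg2. Ermp1, an endoplasmic reticulum peptidase gene, had a log2 fold change of 0.03 (95% interval -0.11 to 0.17) and 9930021J03Rik one of -0.01 (-0.16 to 0.15). Pdcd1lg2, which encodes the checkpoint ligand PD-L2, had 13.5, 13.2 and 17.0 CPM in WT and 14.6, 14.0 and 15.1 CPM in KO. The groups overlapped fully, and the interval of its change was -0.26 to 0.26. Ric1, part of an exchange factor for a Golgi GTPase, had 65.0, 67.8 and 59.99 CPM in WT and 57.8, 57.1 and 47.8 CPM in KO, a log2 fold change of -0.25 that did not pass (edgeR's adjusted p = 0.0881).

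The nearest of the set after Il33 were Uhrf2, Cstf2t, Asah2, Sgms1 and Rpl9-ps6. Uhrf2, a ubiquitin ligase gene, lay 0.0698 Mb from Il33, the nearest of the set. It had 116.7 to 136.2 CPM in WT and 128.1 to 133.9 CPM in KO. The KO range lay inside the WT range, and the 95% interval of its log2 fold change was -0.09 to 0.18. Cstf2t, a variant subunit of the factor that cleaves pre-mRNA before polyadenylation, had 66.0, 64.9 and 67.2 CPM in WT and 58.9, 57.6 and 59.4 CPM in KO, with the groups apart and a log2 fold change of -0.17 (edgeR's adjusted p = 0.0947). It lies within the gene body of Prkg1 on the other strand. Since the use of strand in counting is not given, their reads cannot be told apart. The same limit holds, where they overlap, for all 17 genes of the set with a counted gene on the other strand. Ak3, Cdc37l1, March5 and Smarca2 are among them. Rpl9-ps6, a ribosomal protein pseudogene by its name but annotated as protein coding, had 108 reads in all. It stood at 1.04, 0.988 and 0.996 CPM in WT and 0.572, 0.905 and 0.857 CPM in KO. The groups did not overlap, but it was not called, with an interval of -1.13 to 0.38 and possible exchange of reads with its parent gene.

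The 63 uncalled genes were not all measured equally well. The SE of the log2 fold change was under 0.1 for 33 of the 70 genes and at least 0.2 for 20. For 40 of the 63 uncalled genes the 95% interval lay within 1.5-fold either way and for 52 within 2-fold. The intervals of the remaining 11 reach past 2-fold. Of these, 10 had summed counts of 71 to 405 reads, and Hhex had 1380 reads but WT libraries that differed widely. Per length, levels ran from 0.0603 FPKM for Plce1 to 63.2 FPKM for Dock8, with a median of 7.61 FPKM, and 29 genes had at least 10 FPKM.

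By role, each list as written held at most 1 called gene, with the called genes Asah2 and Sgms1 on none. Of 6 genes of cytokine, death receptor and checkpoint signalling only Fas rose and none fell. Jak2, the kinase of several cytokine receptors, had 190.5, 204.5 and 200.5 CPM in WT and 204.2, 198.8 and 186.5 CPM in KO, with overlapping groups and a 95% interval of -0.14 to 0.11. Dock8, an exchange factor needed for lymphocyte migration and the gene with the highest FPKM of the set, had 492.0 to 531.6 CPM in WT and 463.8 to 509.7 CPM in KO, with an interval of -0.20 to 0.04. Minpp1, an inositol phosphate phosphatase gene, had a log2 fold change of 0.09.

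Of 11 genes of lipid and small-molecule metabolism Slc35g1 rose, 0 fell and 10 were not called. Lipa, the lysosomal acid lipase gene, had 81.1 to 92.9 CPM in WT and 86.8 to 89.4 CPM in KO, and a log2 fold change of 0.00 with an interval of -0.13 to 0.14. Ak3, a mitochondrial adenylate kinase gene, had -0.12. Of 5 genes of protein folding, transport and quality control Ranbp6 fell. Atad1, which extracts misplaced proteins from the mitochondrial membrane, had 0.03 and Cdc37l1, a cochaperone gene, -0.11. Of 7 membrane, adhesion and cytoskeleton genes Abhd17b fell and 6 were not called. These lists, like the set itself, were written with earlier results known, and Asah2 and Sgms1 are on none of them. Both encode enzymes that act on ceramide and would fit lipid and small-molecule metabolism. The count of called genes in that list therefore depends on how it was drawn.

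No gene was called among 5 of RNA processing and translation, 7 of the ubiquitin pathway, 5 of transcription and chromatin and 7 of cell division. The RNA processing genes lay between 0.05 and 0.20 on the log2 scale. Pum3, an RNA-binding repeat protein gene, had 78.7 to 81.7 CPM in WT and 83.5 to 85.2 CPM in KO, and Rcl1, of ribosomal RNA processing, 36.6 to 41.6 and 43.8 to 45.8 CPM. Both pairs of groups stayed apart, yet neither passed (edgeR's adjusted p = 0.441 and 0.168). Noc3l, of ribosome assembly, had 0.05. Of the ubiquitin genes, Tnks2, a poly-ADP-ribosylating enzyme, had -0.14, March5, a mitochondrial ligase, an interval of -0.14 to 0.13, and Pcgf5, a Polycomb group subunit, 0.01. The chromatin remodeller gene Smarca2 had -0.07.

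Genes whose WT and KO libraries did not overlap numbered 21 of 70, against 26.3% of all genes tested, a share near the background. All 7 called genes were among them, and 14 were not called. Of these 14, Hhex had the largest log2 fold change (-1.90), followed by Acta2 (1.03) and Insl6 (0.73), with summed counts of 145 for Acta2 and 405 for Insl6. Acta2, the smooth muscle actin gene, had 0.617, 0.936 and 0.775 CPM in WT and 1.76, 1.14 and 1.86 CPM in KO (edgeR's adjusted p = 0.0989). Exoc6, a subunit of the exocyst that tethers secretory vesicles, came closest to the threshold: 44.8, 41.6 and 47.8 CPM in WT stood against 52.3, 53.0 and 52.4 CPM in KO, a log2 fold change of 0.23 (edgeR's adjusted p = 0.0580).

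Hhex, a homeobox factor gene of blood progenitors and B cells, had the largest difference in the set and was not called. It measured 27.1, 6.39 and 21.03 CPM in WT replicates 1, 2 and 3 and 5.10, 5.67 and 3.86 CPM in KO replicates 4, 5 and 6. WT replicates 1 and 3 were high, while WT replicate 2 was close to the KO level. The log2 fold change was -1.90 ± 0.62 (SE; edgeR's adjusted p = 0.187), and DESeq2 gave an adjusted p of 0.0220. Without WT replicate 2 the change was -2.30, with an edgeR's adjusted p of 4.82e-07. The summed B cell markers without Cd72 had the same order within WT, at 2115, 624.5 and 1622 CPM, with WT replicate 2 again closest to the KO libraries (299.1 to 525.7 CPM). With the B cell signal as a covariate the change of Hhex was 0.50 (adjusted p = 0.640), and without Cd72 in that signal it was 0.20 (adjusted p = 0.849). Their part in the difference was not tested further.

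For the mitotic genes Kif11, Cep55 and Hells the KO libraries differed widely, and none was called. The SE of their log2 fold changes was 0.26, 0.27 and 0.20, against 0.06 for Smc5. Kif11, a spindle motor gene, had 55.6, 70.2 and 70.6 CPM in WT and 41.3, 76.7 and 59.1 CPM in KO. Cep55, of the abscission step of cell division, had 16.1, 17.9 and 21.9 CPM in WT and 12.8, 25.8 and 18.8 CPM in KO. Hells, a chromatin remodeller gene of dividing cells, had 53.8, 68.5 and 63.1 CPM in WT and 59.0, 92.5 and 66.9 CPM in KO. KO replicate 5 was the highest library for all 3 genes, and KO replicate 4 the lowest for Kif11 and Cep55. Smc5, of DNA repair, was steadier, with 86.7 to 98.2 CPM over all 6 libraries.

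**Figure D3:**
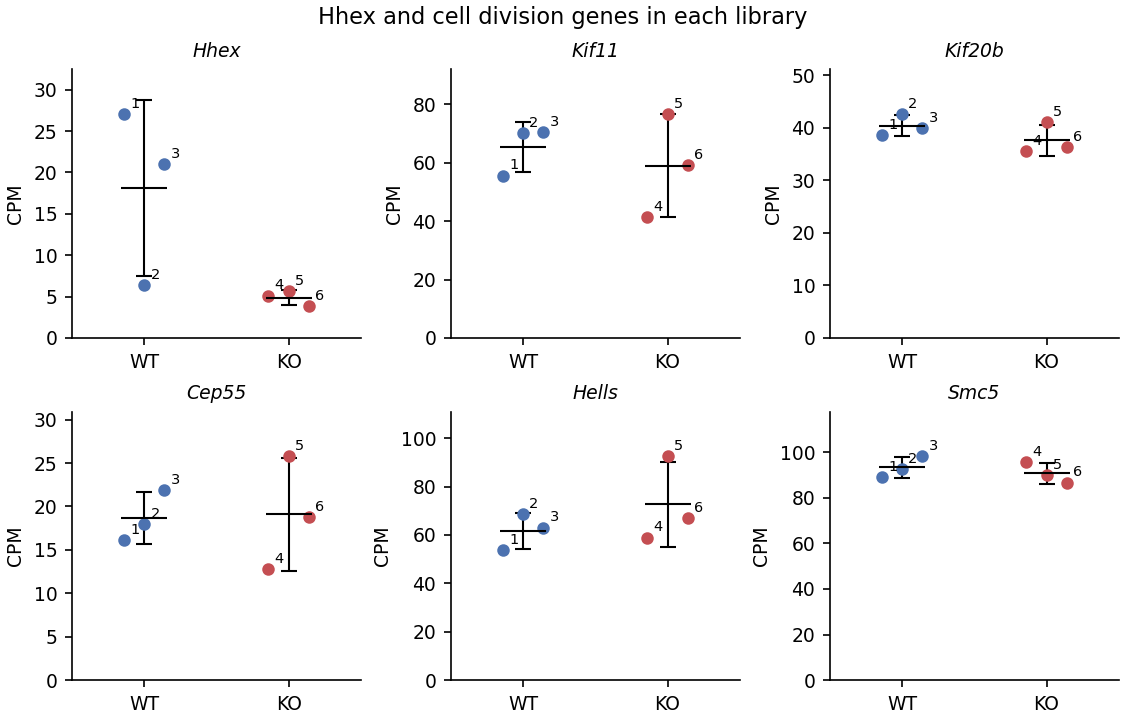
CPM (y axis, from 0) of Hhex and 5 cell division genes in each library, WT in blue and KO in red with replicate numbers; bars show the mean ± SD of 3 libraries. Hhex is high in WT replicates 1 and 3 alone, and KO replicate 5 is highest for Kif11, Cep55 and Hells.

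The shares on other chromosomes are given beside the 7 calls as a description only. On chromosome 19 outside the window 29 of 381 genes were called, or 7.61%, and on the other 19 chromosomes the share ran from 3.69% on chromosome 8 to 9.90% on chromosome 12. The share in the set, 7 of 70, was above that of each of these 19 chromosomes, which held 302 to 1182 tested genes each. A share over 70 genes varies more than one over so many, and no test of that difference was made. The median log2 fold change was 0.01 in the set and 0.00 over all genes, and the median absolute change 0.143 and 0.122. Of the 11 genes set aside by name and tested, 8 were called, so that the window as a whole held 15 calls among 81 genes, or 18.5%. Since those 11 were set aside with results known, neither share is an independent measure of the window. At an unadjusted p under 0.05 stood 28.6% of the set and 21.8% of all genes.

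**Figure D4:**
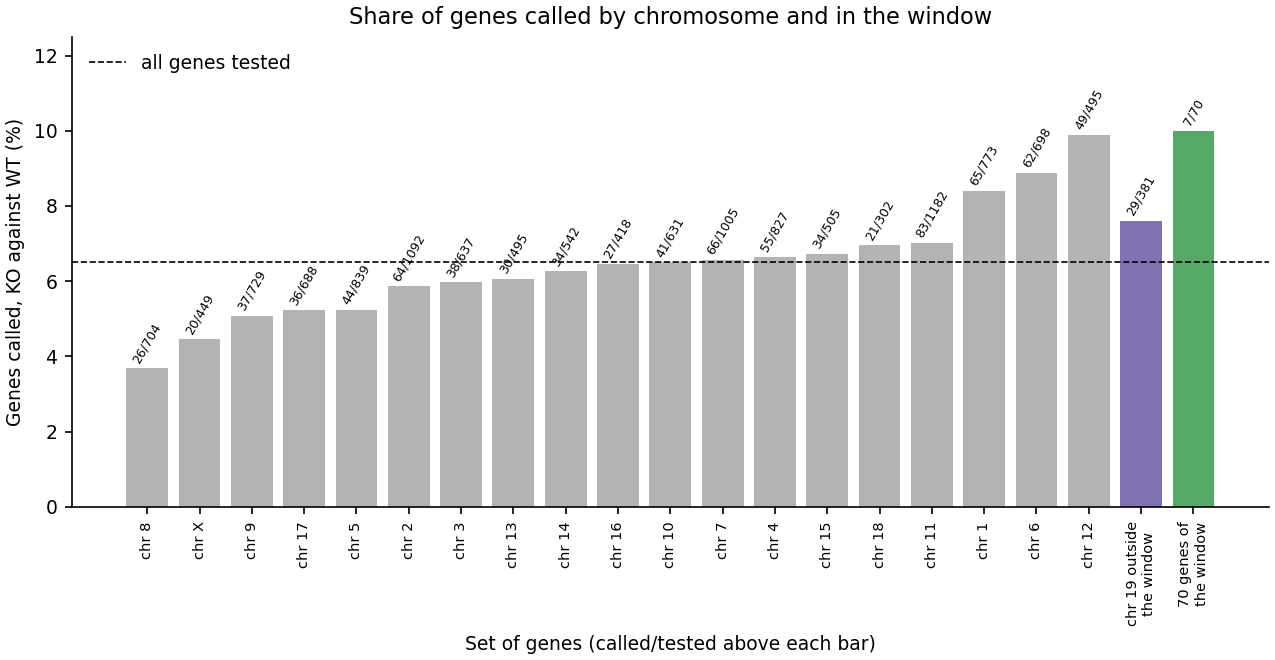
Percent of tested genes called in KO against WT (y axis, from 0) for each chromosome, for chromosome 19 outside the window and for the 70 genes; numbers above bars are called over tested genes, and the dashed line is all genes tested (6.50%). The bar of the 70 genes is the highest, just above that of chromosome 12 (9.90%), but rests on 7 calls and on fewer genes than any other bar.

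The calls differed in how well they held under other settings. Slc35g1 passed in 21 of 21 alternatives, Asah2 in 19, Fas in 15, Sgms1 in 14, Ranbp6 in 11 and Abhd17b in 8. None of these 6 changed its direction in any of them. Entering the B cell score, with or without Cd72, kept the calls of Slc35g1 and Sgms1, while those of Asah2, Fas, Ranbp6 and Abhd17b were lost. The summed B cell markers were lower in every KO library than in every WT library, so this covariate and genotype cannot be fully told apart. With the score of all 17 markers the SE of Ranbp6 went from 0.07 to 0.14, and calls over all genes from 886 to 39. A lost call is therefore no measure of the part of B cells, and neither is a kept one. With the score of all 17 markers the change of Sgms1 went from 0.45 to 0.905. Without the score, the call of Sgms1 was lost when some single libraries were left out.

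**Figure D5:**
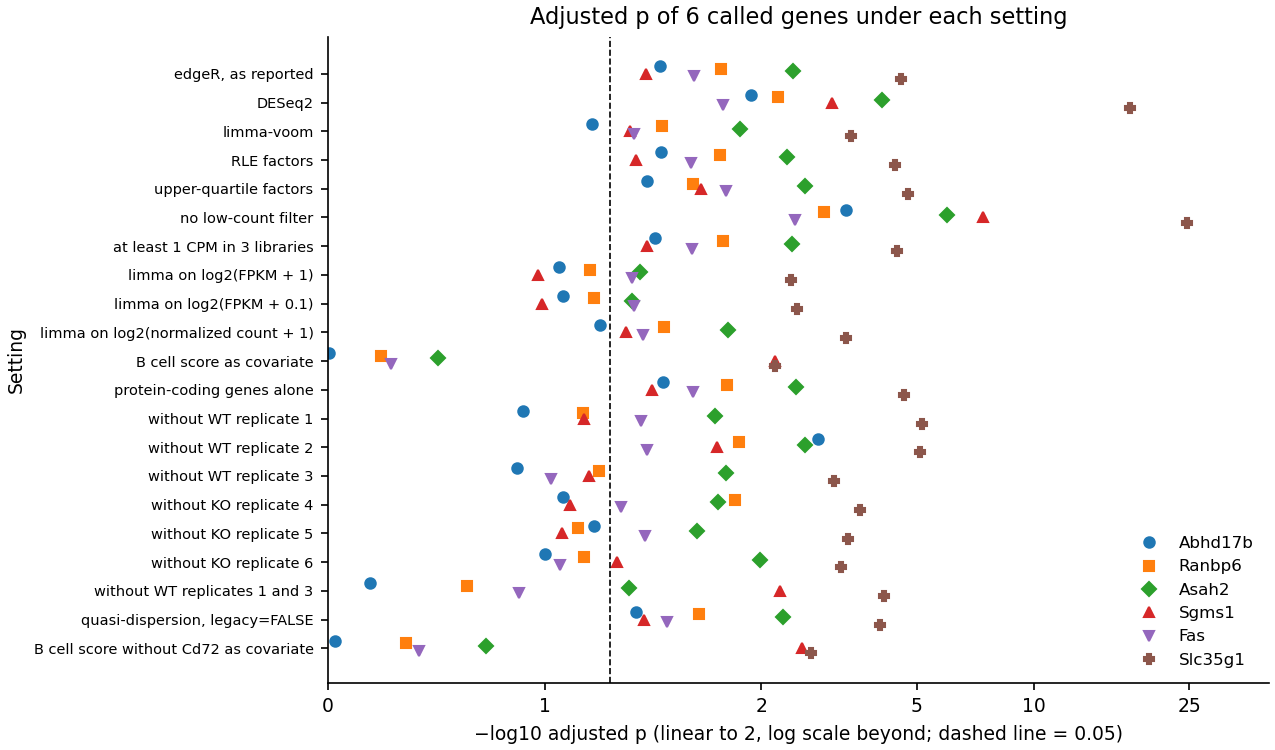
Adjusted p as −log10 (x axis, linear to 2 and log beyond) of 6 called genes under each setting (y axis), other than the stricter threshold of 0.01, which is not drawn; the dashed line marks 0.05, and points to its right passed at that threshold. Slc35g1 lies right of the line in every row, Asah2 in every row but those with the B cell score, and Abhd17b lies left of it most often.

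Total counts ran from 18071928 to 21165063 per library, so 3 reads correspond to 0.142 to 0.166 CPM, for counting error only. Il33 had 7, 0 and 9 reads in WT and 3, 8 and 2 in KO, too few for a check of the genotypes, and the deleted part was not stated in the labels. Of the 7 Treg markers Ctla4 alone was called, higher in KO (log2 fold change 0.53, edgeR's adjusted p = 0.00220). The 7 summed to 3860 to 4466 CPM in WT and to 4627 to 4874 CPM in KO. Among markers of other cells, 1 of 17 B cell genes was called lower in KO (Vpreb3). All 17 were lower in KO, however, with log2 fold changes from -2.47 (Cd72) to -1.51 (Pou2af1). Of 11 dendritic or myeloid genes tested, Siglech and Mpeg1 were called lower (edgeR's adjusted p = 0.0313 and 0.00440). Of the rest, Itgax, Xcr1 and Zbtb46 had log2 fold changes above 0 (0.09, 0.28 and 0.18) and the others below 0, none of them called. Of 2 stromal or endothelial genes tested, Pecam1 was higher (edgeR's adjusted p = 0.0427) at 206.4 to 252.5 CPM. The other, Col1a1, had 1.71 to 2.43 CPM and was not called. Ccl19, Pdpn, Ccl21a, Col3a1 and Lyve1 each had 0 to 27 reads in all, so Pecam1 alone is no sign of such cells. None of 5 CD8 T or NK genes was called. Of 7 melanoma genes, Pmel stood at 20.7 to 27.5 CPM in WT and 28.7 to 33.8 CPM in KO and was called higher (log2 fold change 0.42, edgeR's adjusted p = 0.0376). Mitf had 338 reads in all, Mlana, which lies in the window, 10 reads and Sox10 2 reads, and Tyr, Tyrp1 and Dct had 0 reads in every library. The part of other cells in the 7 calls was not tested beyond the B cell covariate.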

How the data were processed

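The 6 libraries were grouped by their titles. STAR 2.4.2a, DESeq2 and bcl2fastq are named, per the submitters' processing notes, and the build is GRCm38. How reads were assigned to genes, and whether by strand, was not given in the sources used here. Deposited by the authors were raw counts per Ensembl gene, normalized counts per symbol (a signal: dividing the raw count by 1 library factor gave the value of 99.87% or more of the genes above 50 counts) and FPKM per symbol.

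Positions came from GENCODE M21 by gene ID (35412 of 37187 matched), and the rows of the symbol tables for all 70 genes were found by symbol or synonym and by equal counts. The test on raw counts was that of edgeR 4.0.16 under R 4.3.3 (filterByExpr, TMM, robust quasi-likelihood, two-sided, Benjamini-Hochberg over 13626 genes, threshold 0.05). CPM values use TMM factors, SEs come from the F statistic and 95% intervals use its degrees of freedom. Pairs of libraries within groups had chi-square over degrees of freedom of 5.16 to 14.7, so none was a duplicate. In 5 simulated draws over 13626 genes the test found 25.2% of the genes set to change 1.25-fold, 59.6% at 1.5-fold, 77.2% at 2-fold and 91.6% at 4-fold. Of the calls in these draws 8.52% were false, a larger share than the adjusted p threshold of 0.05 aims at.

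The members, role lists, marker lists and tests were chosen with earlier results of these data known. Named are the called genes, the 5 nearest to Il33 on each side, the 3 of each role list with the highest FPKM and the genes at the count minimum; others were chosen after their values were seen (Acta2, Insl6, Kif11, Cep55, Hells, Plce1). Some genes that this rule names, 1 called gene among them, are counted in the totals but not reported here, nor drawn in the plots of single genes. Alternatives were DESeq2 1.42.0, limma-voom (limma 3.58.1), other factors, filters and thresholds, limma on normalized counts (log2 with 1 added) or on FPKM (log2 with 1 or 0.1 added), the mean log2 CPM of 17 B cell markers as a covariate, protein-coding genes alone and left-out libraries; another quasi-dispersion method and the B cell covariate without Cd72 were chosen after seeing the data.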

Additional observations from a re-analysis of the deposited data

How the results depend on the processing

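No paired analysis was possible because the WT libraries are numbered 1 to 3 and the KO libraries 4 to 6. Of the 70 genes 7 were called, against 3 with limma on either log2(FPKM + 1) or log2(FPKM + 0.1), 2 at a threshold of 0.01, 2 with the B cell score, with or without Cd72, and 3 without WT replicates 1 and 3. The 4 higher became 2 at a threshold of 0.01 and 2 with either B cell score. The 3 lower became 1 with limma-voom, 1 with limma on log2(normalized count + 1) and 0 with limma on either FPKM scale, at a threshold of 0.01, with either B cell score or without WT replicates 1 and 3. Leaving out 1 library gave 2 to 8 calls in all, 2 to 4 higher and 0 to 4 lower. There were 3 calls when WT replicate 1, KO replicate 5 or KO replicate 6 was dropped, 2 when WT replicate 3 was and 8 when WT replicate 2 was. Over all genes the 886 calls became 378 and 384 on the FPKM scales, 1645 with no low-count filter, 275 at a threshold of 0.01, 39 with the B cell score, 77 with that score without Cd72, 282 without WT replicates 1 and 3 and 367 to 1364 when 1 library was left out. The median log2 fold change of the 70 genes was 0.0075 and became 0.0697 with the B cell score and 0.0489 with that score without Cd72. For the genes named or called under some setting, 692 values were recomputed; 591 kept direction and call, 51 lost a call, 6 gained one, 44 changed sign without a call on either side and 0 called values reversed. The gains were Hhex with DESeq2 and without WT replicate 2, Exoc6 with upper-quartile factors and with no filter, and Ric1 and Insl6 with no filter. The cause was not tested. Of the 11 genes whose intervals reach past 2-fold, 10 had at most 405 reads; Hhex had 1380.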
